A study of Saccharomyces cerevisiae with 24 samples.

Results

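Small G1 cells of budding yeast were compared at the first step of a size series, from about 40 to about 45 fL, to show which RNAs change as unbudded cells begin to grow. The comparison uses 6 of the 24 libraries of the series: 3 pools labelled 39.7, 39.1 and 40.1 fL (40 fL replicates 1 to 3) and 3 pools labelled 44.4, 43.0 and 43.3 fL (45 fL replicates 1 to 3), and it covers all genes. Every group shares the same strain and treatment. The strain is BY4743, a diploid laboratory wild type, grown in YPD rich medium at 30 °C. Young G1 cells were collected by centrifugal elutriation, which sorts cells by size, and were returned to culture until they had grown to the wanted size. They were then stopped with 100 µg/ml cycloheximide, which blocks translation, and 0.1% sodium azide, which blocks respiration, and harvests of like size were pooled after freezing. Total RNA depleted of rRNA, without poly(A) selection, was sequenced on 2 lanes. Which library ran on which lane, or which cultures entered which pool, is not given in the sources used here. Because the larger cells were also longer in culture, size and time since elutriation cannot be told apart, and the series holds no asynchronous culture as a control.

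A yeast cell in early G1 carries the transcription factors SBF (Swi4-Swi6) and MBF (Mbp1-Swi6) at its G1/S promoters, with SBF held back by the repressor Whi5. The G1 cyclin Cln3 with the kinase Cdc28, and Bck2 on a separate route, set off the transition called Start, after which Cln1 and Cln2 reinforce their own transcription and genes for budding and DNA synthesis come on. A daughter cell has just left a programme of its own, in which septum-degrading enzymes are made at the end of mitosis.

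The sequences that bear on this step are the short words to which these factors bind, shown here in 6 promoters of genes that were called. Capitals mark SCB words (CNCGAAA, bound by SBF) and MCB words (ACGCGT, bound by MBF), on either strand. Each stretch is the part, at most 300 bases long, of the 600 bases before the start codon that holds the most such words, read 5′ to 3′ on the strand of the gene from the R64 reference.
PCL1, chrXIV:87558-87650, plus strand: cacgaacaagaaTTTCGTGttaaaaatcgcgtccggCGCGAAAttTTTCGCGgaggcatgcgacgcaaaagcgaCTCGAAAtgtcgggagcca
CLN1, chrXIII:662180-662227, plus strand: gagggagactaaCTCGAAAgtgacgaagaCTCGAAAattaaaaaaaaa
CLN2, chrXVI:67134-67207, minus strand: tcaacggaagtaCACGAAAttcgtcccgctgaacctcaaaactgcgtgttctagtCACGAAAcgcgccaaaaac
CLB6, chrVII:706861-706916, minus strand: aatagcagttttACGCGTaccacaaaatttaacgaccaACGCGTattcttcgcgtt
RNR1, chrV:298446-298726, plus strand: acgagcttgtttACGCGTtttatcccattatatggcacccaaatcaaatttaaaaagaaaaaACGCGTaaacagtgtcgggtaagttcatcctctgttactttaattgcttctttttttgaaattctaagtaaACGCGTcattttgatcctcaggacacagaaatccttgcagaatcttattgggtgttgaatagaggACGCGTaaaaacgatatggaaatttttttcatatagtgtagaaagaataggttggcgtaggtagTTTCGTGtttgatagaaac
POL30, chrII:425944-425979, minus strand: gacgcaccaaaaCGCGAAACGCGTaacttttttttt
The windows of PCL1, CLN1 and CLN2 held SCB words alone (4, 2 and 2), that of CLB6 held 2 MCB words, and that of RNR1 held 4 MCB words and 1 SCB word. In POL30 an SCB word and an MCB word share 1 base, an arrangement found in 2 of 5810 windows.

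From 40 to 45 fL the genes that rose included members of the G1/S transition, histones, thiamine synthesis, the cell wall and glycolysis, and those that fell included members of the daughter-specific septum enzymes, the glyoxylate route, iron uptake, amino acid uptake and mating. Levels are given in CPM, which divides a gene's count by a library total corrected with TMM factors, and are thus shares of a library and not amounts per cell, so fewer cells of a type and less RNA per cell cannot be told apart. Log2 changes are given ± SE from edgeR's quasi-likelihood test on all 24 libraries, and a gene was called at a Benjamini-Hochberg adjusted p under 0.05 over 6402 genes. Of these 924 were called, or 14.4%, with 742 up (11.6%) and 182 down (2.84%). At least 2-fold rises numbered 202 and falls 45, and at least 4-fold 57 and 1. The groups did not overlap at 2102 genes (32.8% of those tested), 887 of which were called. The split depends on scaling: library totals alone put the median of all genes at -0.15 and not 0.04, and called 315 up and 586 down, while upper quartile factors gave 353 and 374 (median -0.06) and deposited TPM plus 1 in limma gave 272 and 655 (median -0.19). TMM, RLE, upper quartile and total scaling called the same 307 genes up and 181 down. Leaving out single libraries moved the counts, to 361 up and 103 down without 40 fL replicate 2, 334 and 84 without 40 fL replicate 3, 354 and 116 without 45 fL replicate 2, 510 and 99 without 45 fL replicate 1 and 540 and 112 without 40 fL replicate 1. In all of the 6 fits that each leave out 1 library, 263 genes stayed called up and 57 down.

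**Figure D1:**
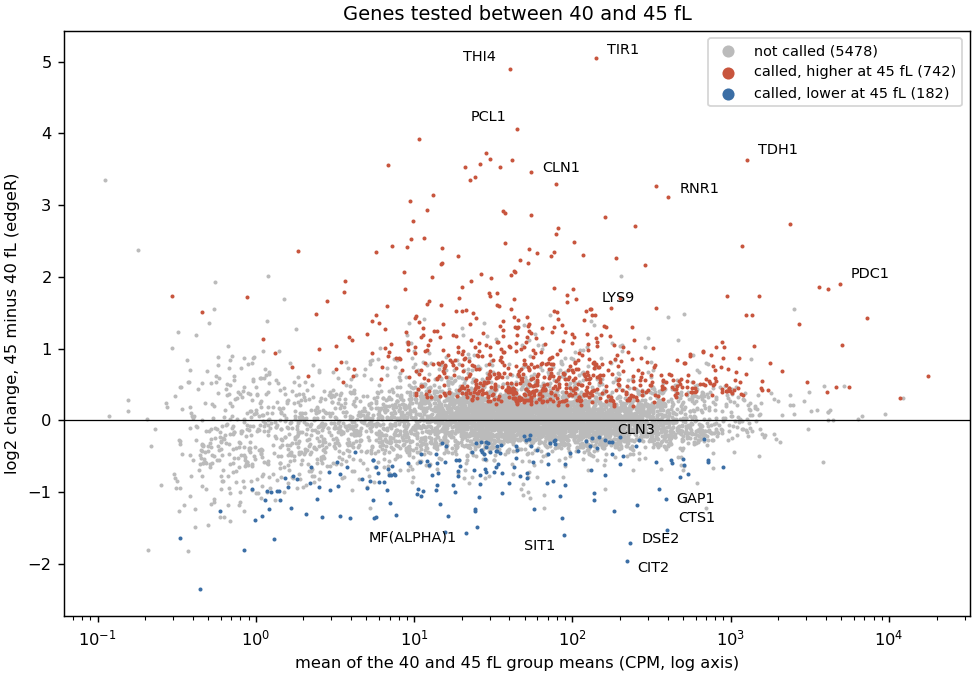
Each point is 1 of the 6402 tested genes, by the mean of both group means (CPM, log axis) and the log2 change from 40 to 45 fL, with called genes in colour. The 742 rises reach 5.06 (TIR1), and the 182 falls are smaller, with CIT2 at -1.97 the largest of those named.

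The libraries held 20354532 to 24408547 counts at 40 fL and 16789983 to 20534042 at 45 fL, so 3 counts stand for 0.123 to 0.179 CPM before TMM scaling (counting error only). Scaling factors from TMM lay between 1.16 and 1.17 for the smaller cells and between 0.984 and 1.04 for the larger. No replicate was a copy of another, since a chi-square test of each pair of replicates gave 10.6 to 208 times its degrees of freedom. The labels call the replicates pools and give no number that links libraries across sizes. 40 fL replicate 1 and 45 fL replicate 3 stood farthest from both their mates, at 1.67 and 1.45 times the distance between those mates. URA3 and LEU2, deleted in BY4743, had 0 counts in all 24 libraries. HIS3 was at 0 in none of them and had 407 to 983 counts in these 6. No gene of the 5 marker lists was below 1 CPM in all 6 libraries. Summed markers of S phase cells (HTA1, HTB1, RNR1, POL1, CLB5, CLB6) stood at 354 to 444 CPM at 40 fL and at 1001, 2128 and 906 CPM in 45 fL replicates 1, 2 and 3. Markers of budded G2/M cells stood at 45.4 to 65.9 and at 77.6, 200 and 109 CPM, and those of newborn daughters at 1111 to 1520 and at 391, 775 and 477 CPM. Haploid cell markers summed to 161 to 175 CPM at 40 fL and 128 to 142 CPM at 45 fL, and meiosis markers to 131 to 141 and 93.7 to 117 CPM.

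CLN3, WHI5 and BCK2, which act upstream of or at Start, and SIC1 were not called between 40 and 45 fL. CLN3 (YAL040C, chromosome I, 65778 to 67520) stood at 161, 176 and 180 CPM at 40 fL and at 181, 157 and 188 CPM at 45 fL. The groups overlapped, and the log2 difference of 0.03 ± 0.17 was not called (edgeR adjusted p = 0.936) and turned negative under RLE, upper quartile, total and TPM scaling. WHI5 (YOR083W, chromosome XV, 479533 to 480420) stood at 10.1, 10.5 and 8.58 CPM and then at 13.9, 16.6 and 11.0 CPM. Its 45 fL libraries all lay above those at 40 fL, but the difference of 0.50 ± 0.21 was not called (adjusted p = 0.113). Nor was that of BCK2 (0.20 ± 0.07, adjusted p = 0.0637), which stood at 137 to 143 and 160 to 162 CPM and turned negative with deposited TPM, or that of SIC1, the inhibitor of S phase cyclin kinase (-0.05 ± 0.15, adjusted p = 0.873). CDC28, the kinase itself (YBR160W), stood at 40.1, 32.3 and 33.2 CPM at 40 fL and 52.0, 61.2 and 56.9 CPM at 45 fL, without overlap, and rose by 0.69 ± 0.09 (adjusted p = 8.74e-05). CKS1, which encodes a subunit of that kinase, and WHI3, an RNA-binding protein that acts on CLN3 mRNA, were called up as well (0.35 ± 0.10, adjusted p = 0.0268, and 0.40 ± 0.11, adjusted p = 0.0164). Both calls were lost under upper quartile (0.129 and 0.0964), total (0.34 and 0.194) and TPM scaling (0.533 and 0.338), and that of CKS1 also with RLE (0.0563). CKS1 was lost without any library but 45 fL replicate 1 (0.0586 to 0.0955), and WHI3 when 40 fL replicate 1 or 3 or 45 fL replicate 2 or 3 was left out (0.0568 to 0.0643).

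The DNA-binding subunit of SBF rose at this step, and so, less firmly, did its partners. SWI4 (YER111C, chromosome V, 382595 to 385876) stood at 59.7, 43.8 and 43.7 CPM at 40 fL and 143, 168 and 60.1 CPM at 45 fL. 45 fL replicate 3 lay barely above 40 fL replicate 1. The rise was 1.33 ± 0.30 (adjusted p = 0.00681, and 0.0723 in a fit of the 6 libraries alone). SWI6, the regulatory subunit of SBF and MBF, rose by 0.50 ± 0.12, a call that ended without 45 fL replicate 2 (adjusted p = 0.0525) and under upper quartile (0.0618), total (0.067) and TPM scaling (0.0935). MBP1, of MBF, had a log2 change of 0.35 ± 0.11 (adjusted p = 0.0472) that was lost without any library but 45 fL replicate 3 (0.0643 to 0.209) and under every other scaling (0.103 to 0.469). STB1, which binds Swi6 at these promoters, rose by 0.91 ± 0.15 (adjusted p = 0.000974).

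The cyclin genes CLN1, CLN2, PCL1, PCL2, CLB5 and CLB6 rose from 40 to 45 fL. CLN1 (YMR199W, chromosome XIII, 662644 to 664284) stood at 14.7, 6.08 and 6.58 CPM at 40 fL and at 77.9, 164 and 60.9 CPM at 45 fL. Its promoter is among those printed above. Every 45 fL library lay well above every 40 fL library, with 40 fL replicate 1 and 45 fL replicate 2 the highest of their groups, and the rise was 3.46 ± 0.46 (adjusted p = 0.000119). PCL1, a cyclin of the kinase Pho85 (YNL289W, chromosome XIV, 87897 to 88736), went from 9.16, 3.21 and 2.59 CPM to 59.9, 141 and 52.6 CPM, a rise of 4.07 ± 0.52 (adjusted p = 8.74e-05). CLB6, an S phase cyclin (YGR109C, chromosome VII, 705359 to 706501), went from 2.38, 0.667 and 0.807 CPM to 16.7, 33.1 and 10.8 CPM, a rise of 3.93 ± 0.49 (adjusted p = 8.74e-05). The same libraries were highest for these 3 genes. CLN2 rose by 2.91 ± 0.47 (adjusted p = 0.000642), PCL2 by 1.53 ± 0.28 and CLB5 by 1.19 ± 0.25. The sizes lean on single libraries: without 45 fL replicate 2 the rises were 2.27 for CLN2, 3.48 for PCL1 and 3.38 for CLB6, and without 40 fL replicate 1 they were 3.30, 4.86 and 4.76, all still called.

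Of 30 listed G1/S cyclins, regulators and budding genes 26 rose (86.7%, beside 11.6% of all genes) and none fell. The median was 1.76, beside 0.04 over all genes. This list, like the others, was chosen with earlier results of these data known, so its counts describe and are not a test. In this list the mean log2 level above the 40 fL mean was 1.67, 2.60 and 1.60 in 45 fL replicates 1, 2 and 3, and the 40 fL libraries lay between -0.26 and 0.42. The members included YOX1, a repressor of early cell cycle genes, which went from 2.67 to 6.50 CPM over the 40 fL libraries to 24.6 to 76.0 CPM (3.40 ± 0.47). 45 fL replicate 2 was the highest library for this list and was also highest in the S phase and G2/M marker sums. The count was 19 without 45 fL replicate 2, 20 without 40 fL replicate 3 and 24 to 25 under the other scalings. TOS4, a listed checkpoint transcription factor gene (3.72 ± 0.54, adjusted p = 0.000265), and TOS6, a wall protein gene outside the list (3.64 ± 0.53, adjusted p = 0.000268), were among the 15 largest rises. Without 45 fL replicate 2 the changes were 2.75 for YOX1, 3.14 for TOS4 and 2.83 for TOS6, and without 40 fL replicate 1 that of TOS4 was 4.52.

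**Figure D2:**
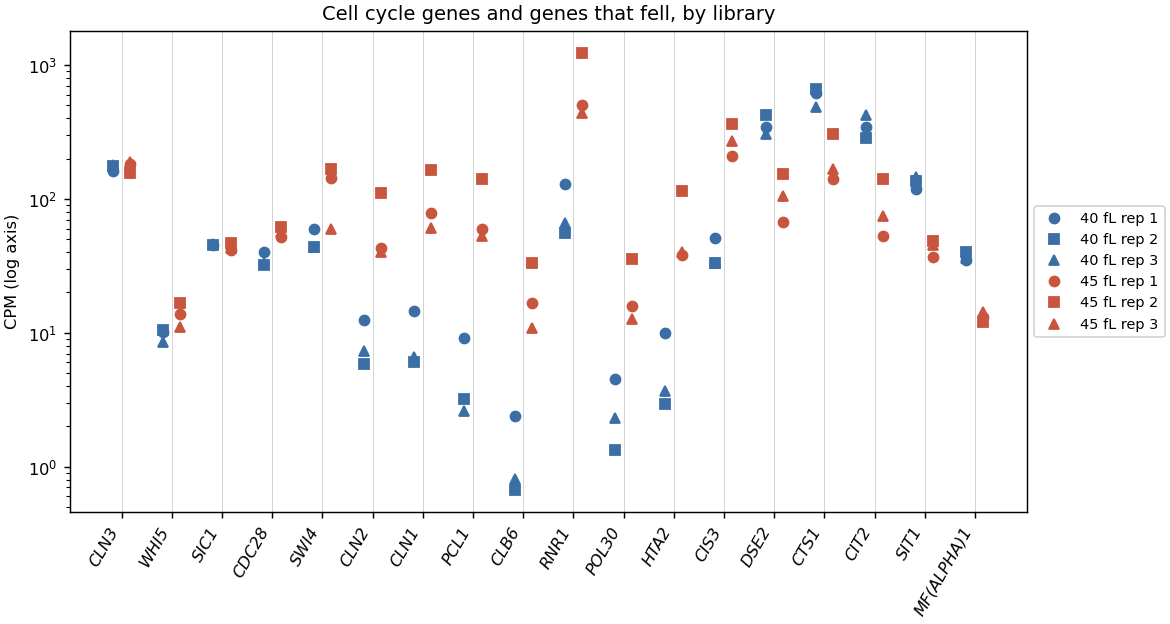
CPM (log axis) of 18 genes in each of the 6 libraries, 40 fL in blue and 45 fL in red, with a symbol for each replicate. CLN3 overlaps between the sizes, the cyclin and replication genes lie higher at 45 fL with replicate 2 on top, and DSE2, CTS1, CIT2, SIT1 and MF(ALPHA)1 lie lower.

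Most of the listed genes of DNA synthesis rose at this step. RNR1, the large subunit of ribonucleotide reductase (YER070W), stood at 129, 55.4 and 66.1 CPM at 40 fL and at 507, 1228 and 439 CPM at 45 fL. All 45 fL libraries were higher, replicate 2 most, and the rise was 3.12 ± 0.49 (adjusted p = 0.000509), or 2.50 without 45 fL replicate 2. POL30, the sliding clamp PCNA (YBR088C), went from 4.55, 1.33 and 2.29 CPM to 15.8, 35.4 and 12.6 CPM, a rise of 2.94 ± 0.49 (adjusted p = 0.000928), or 3.55 without 40 fL replicate 1. MCD1, the cohesin ring subunit, rose by 3.62 ± 0.53 (2.97 without 45 fL replicate 2), POL1, a DNA polymerase alpha subunit, by 1.56 ± 0.29 and RFC3, of the clamp loader, by 0.99 ± 0.16. Of 57 listed replication and repair genes 40 rose (70.2%, beside 11.6% of all genes) and none fell (median 1.02). The rises numbered 25 without 45 fL replicate 2 and 31 without 40 fL replicate 2 or 3. Of 17 MCM helicase and origin licensing genes 6 rose (35.3%, median 0.31), among them the helicase subunit MCM7 (0.63 ± 0.15) and the loader CDC6 (0.90 ± 0.23). That count was 4 with RLE, 2 with upper quartile or total scaling and 0 with deposited TPM, and 2 to 3 without 40 fL replicate 2 or 3 or 45 fL replicate 2. It was 4 without 45 fL replicate 3. The CDC6 call itself ended without 40 fL replicate 3 (adjusted p = 0.0735) or 45 fL replicate 2 (0.0741).

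Of the paired histone genes, HTA2 and HTB2 rose and HTA1 and HTB1 were not called. HTA2, which encodes histone H2A (YBL003C), stood at 9.90, 2.92 and 3.69 CPM at 40 fL and at 38.2, 114 and 39.8 CPM at 45 fL. HTA1, its paralog, stood at 91.7 to 97.3 CPM and then at 122, 228 and 125 CPM. The groups did not overlap for either gene, but HTA2 rose by 3.53 ± 0.61 (adjusted p = 0.00122) whereas the HTA1 difference of 0.75 ± 0.33 was not called (adjusted p = 0.135). The same held of H2B, where HTB2 rose by 2.59 ± 0.52 and HTB1 had a difference of 0.79 ± 0.32 (adjusted p = 0.111), and the difference between the paralogs was not tested. Of 10 histone genes 7 rose (median 1.30), the linker histone HHO1 by 1.60 ± 0.32, and 4 were called when 45 fL replicate 2, 40 fL replicate 2 or 40 fL replicate 3 was left out. HHF2 (2.48 ± 0.45) shares 40.8% of its 31-base words with other places in the genome, so its own value is uncertain. Without 45 fL replicate 2, HTA2, HTB2 and HHF2 had changes of 2.81, 1.95 and 1.87, and HTA2 had 4.28 without 40 fL replicate 1.

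Some mitotic and spindle genes rose. Of 26 members of the CLB2 cluster, the mitotic genes driven by forkhead factors, 5 were called up (19.2%, beside 11.6% of all genes) and none down (median 0.51), namely CLB1, YPT11, CLB3, AIM20 and CLB4. CLB1, a mitotic cyclin, went from 5.21, 2.04 and 2.63 CPM to 19.7, 65.3 and 30.9 CPM, a rise of 3.53 ± 0.68 (adjusted p = 0.00223), or 2.93 without 45 fL replicate 2. CLB2 itself went from 5.08 to 7.73 CPM to 9.46, 18.9 and 10.8 CPM and was not called (1.07 ± 0.49, adjusted p = 0.158). The count was 1 without 45 fL replicate 2 or 40 fL replicate 3, 2 without 40 fL replicate 2, 3 without 40 fL replicate 1, and 3 under upper quartile, total and TPM scaling. Of 38 spindle and kinetochore genes 15 rose (39.5%) and none fell (median 0.59), with the spindle pole body component SPC42 up by 1.13 ± 0.18, gamma-tubulin TUB4 by 1.53 ± 0.32, the kinetochore protein gene MIF2 by 0.90 ± 0.19 and STU1 by 0.76 ± 0.15. This count fell to 4 without 45 fL replicate 2 and to 7 without 40 fL replicate 2 or 3, and was 10 under upper quartile, total and TPM scaling. The G2/M marker sums given above were highest in 45 fL replicate 2 as well, and their part in these counts was not tested.

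Genes with an SCB or MCB word upstream were called up in a larger share than genes without one. Windows of 600 bases were read for 5810 tested genes, of which 12.4% were called up and 2.70% down. An MCB word was in 6.39% of windows, and 34.2% of the genes holding one were called up, beside 10.9% of those without. An SCB word was in 25.0% of windows, with 19.6% and 10.0% called up. Either word was in 29.4% of all windows and in 49.7% of the windows of called-up genes, or 358 of 720. In the G1/S list 24 of 30 windows held an SCB word and 8 an MCB word, and in the replication list 41 of 57 held an MCB word. Both lists were chosen with earlier results of these data known. The PAC word of ribosome biogenesis genes (GCGATGAG) went the other way, with 4.85% of holders called up beside 12.8%. Among falls, the Aft1 word (TGCACCC) was held by 158 genes, of which 9 (5.70%) were called down, beside 2.62% of the rest. The Ino2-Ino4 word (CATGTGAA) was held by 96 genes, of which 6 (6.25%) were called down, beside 2.64%. In the phospholipid list 11 of 29 windows held that word, and 0 of the 29 genes were called down and 3 up. Windows of divergent genes overlap, so 1 word can count for a pair of genes, and a word is a description of the sequence, not a bound site.

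**Figure D3:**
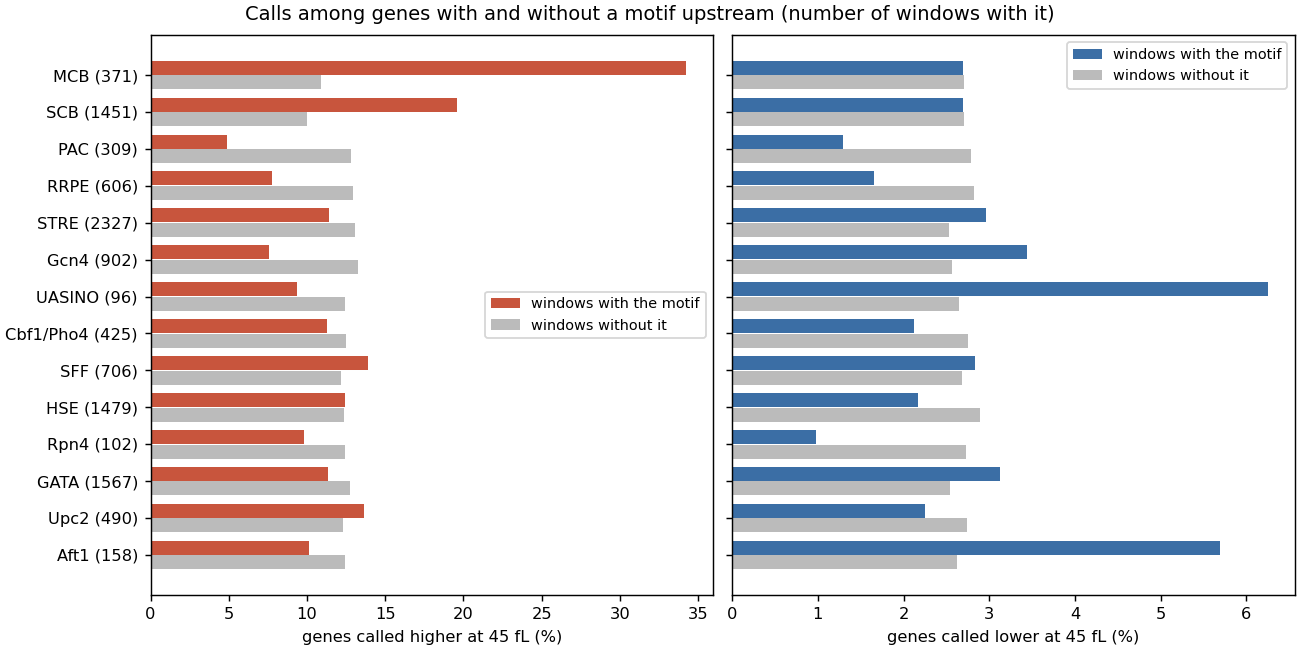
Percent of genes called higher (left) or lower (right) at 45 fL among genes with (coloured bars) and without (grey bars) each of 14 words in the 600 bases upstream, with the number of windows holding it. MCB and SCB stand out for rises, at 34.2% and 19.6%. The highest shares of falls, for the Ino2-Ino4 and Aft1 words (6.25% and 5.70%), rest on 6 and 9 genes.

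DSE2 and CTS1, made as newborn daughters leave their mothers, fell. DSE2, a glucanase-like secreted protein (YHR143W, chromosome VIII, 385510 to 386487), stood at 342, 425 and 304 CPM at 40 fL and at 67.8, 153 and 105 CPM at 45 fL. All 40 fL libraries were higher, and of the larger cells replicate 2 was the highest. The fall was -1.72 ± 0.38 (adjusted p = 0.00624). CTS1, the septum chitinase (YLR286C, chromosome XII, 708448 to 710136), went from 620, 661 and 486 CPM to 140, 308 and 166 CPM (-1.53 ± 0.42, adjusted p = 0.0205), but that call was lost without 40 fL replicate 2 (0.0668), 45 fL replicate 1 (0.0886) or 45 fL replicate 3 (0.058). DSE1 (-1.11 ± 0.37, adjusted p = 0.0489) and the glucanase-like SUN4 (-0.70 ± 0.21, adjusted p = 0.0326) were called down too and were lost without any library but 45 fL replicate 2 (0.058 to 0.159 and 0.0556 to 0.142). ASH1, the daughter-specific repressor of HO, stood at 77.2 to 86.6 and 64.1 to 74.6 CPM (-0.26 ± 0.25, adjusted p = 0.547) and EGT2 overlapped between sizes (-0.62 ± 0.57, adjusted p = 0.529). Of 22 listed daughter and early G1 genes 4 fell and 2, the wall protein genes CIS3 and PST1, rose, with a median of -0.29. The falls numbered 1 to 2 without any single library other than 45 fL replicate 2, and the rises 1 without 40 fL replicate 2 or 3 or 45 fL replicate 1. CIS3 went from 33.4 to 51.1 CPM to 210, 363 and 270 CPM (2.84 ± 0.36, adjusted p = 8.74e-05), while the rise of PST1 (1.69 ± 0.44) ended without 40 fL replicate 2 (0.0792), 40 fL replicate 3 (0.0827) or 45 fL replicate 1 (0.138).

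In both lists of wall genes more were called up than down, as over all genes, where 11.6% were up and 2.84% down. TIR1, a mannoprotein of the family induced by cold and low oxygen (YER011W, chromosome V, 175248 to 176012), stood at 4.20, 12.0 and 8.45 CPM at 40 fL and at 112, 514 and 192 CPM at 45 fL. The groups lay far apart, with replicate 2 again highest at 45 fL, and the change of 5.06 ± 0.69 (adjusted p = 0.000149) was the largest of the named rises, or 4.21 without 45 fL replicate 2. Of 26 TIR, DAN, PAU and other mannoprotein genes 7 rose (26.9%) and 2 fell (7.69%), with a median of 0.27. Without any single library the counts were 4 to 5 and 2. CWP2 was up by 1.46 ± 0.26 and FLO11 by 1.27 ± 0.28. The 2 that fell were the agglutinin genes SAG1 (-0.73 ± 0.14) and AGA1 (-0.61 ± 0.14), which are also in the mating list. Of 27 glucan and chitin genes 8 rose (29.6%) and 1 fell (3.70%), with a median of 0.28. The 1 that fell was GAS2, a glucan remodelling gene of sporulation (-0.85 ± 0.14). SCW4, a glucanase-like wall protein, went from 453, 602 and 552 CPM to 1137, 1079 and 1035 CPM (1.02 ± 0.14, adjusted p = 0.000119). This was even across replicates, unlike its relative SCW10, which rose by 2.39 ± 0.45, or 1.73 without 45 fL replicate 2. The 8 rises became 3 under upper quartile, total and TPM scaling, 4, 3 and 2 when 40 fL replicate 1, 2 or 3 was left out, and 2 when 45 fL replicate 2 was. SIM1, a relative of SUN4 (3.29 ± 0.51), and CSI2 (3.35 ± 0.47), both members of the G1/S list, were also among the 15 largest rises, or 2.69 and 2.72 without 45 fL replicate 2.

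Most of the listed glycolytic genes rose. PDC1, the main pyruvate decarboxylase of fermentation (YLR044C, chromosome XII, 232390 to 234081), stood at 2487, 1862 and 1825 CPM at 40 fL and at 8687, 8156 and 6255 CPM at 45 fL. The groups were widely separated and the rise was 1.90 ± 0.24 (adjusted p = 8.74e-05). TDH1, a glyceraldehyde-3-phosphate dehydrogenase (YJL052W), went from 215, 190 and 164 CPM to 3105, 2178 and 1763 CPM (3.63 ± 0.60, adjusted p = 0.000741). It shares 26.3% of its words with other places, and the enolase genes ENO1 (2.73 ± 0.39) and ENO2 (1.86 ± 0.24) share 38.8%, whereas FBA1, the aldolase gene, shares none (1.42 ± 0.21, adjusted p = 0.000233). The list of 24 genes of glycolysis and fermentation held 15 rises (62.5%, beside 11.6% of all genes) and no fall (median 1.04). The rises numbered 11 to 16 without any single library and 13 to 15 under the other scalings. 45 fL replicate 1 was highest and replicate 3 lowest in this list, at 1.51 and 0.75 above the 40 fL mean.

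Of the genes that use other carbon sources, more were called down than up. CIT2, the citrate synthase of the glyoxylate route (YCR005C, chromosome III, 120946 to 122328), stood at 344, 284 and 421 CPM at 40 fL and at 52.8, 141 and 74.5 CPM at 45 fL. No library overlapped, and the fall of -1.97 ± 0.29 (adjusted p = 0.000287) was the largest of the named falls. DLD3, a lactate dehydrogenase gene, fell by 1.18 ± 0.24 on the log2 scale (adjusted p = 0.00352). Of 26 genes of gluconeogenesis, glyoxylate and acetate use 5 fell, namely CIT2, the activator ADR1 (-1.27 ± 0.23), the carnitine acetyltransferase gene YAT2 (-0.88 ± 0.10), IDP2 (-0.67 ± 0.15) and ICL1 (-0.36 ± 0.12), and 1 rose, ADH2 (0.79 ± 0.19), with a median of -0.07. The ICL1 call was lost without any library but 45 fL replicate 2 (adjusted p = 0.0642 to 0.136), and 8 members fell under total or TPM scaling. Of 17 hexose transporter genes SNF3, a glucose sensor, fell by 0.43 ± 0.11 (lost without 40 fL replicate 3, 0.0532, or 45 fL replicate 2, 0.0681) and HXT16 was called up, with 96.3% of its words repeated elsewhere.

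Some ribosomal protein genes rose slightly while ribosome biogenesis genes were not called. In the list of 138 genes for cytosolic ribosomal proteins 41 rose (29.7%), none fell and the median was 0.33, with RPS0A at 592, 538 and 562 CPM and then 877, 919 and 729 CPM (0.58 ± 0.13, adjusted p = 0.00687). The size of the change was near the shift between scalings: the rises numbered 13 with RLE and 4 with upper quartile factors, 8 with 2 falls under total scaling and 10 with 5 falls for TPM. They numbered 26 without 40 fL replicate 1, 5 to 9 without 40 fL replicate 2 or 3 or 45 fL replicate 1 or 2, and 61 without 45 fL replicate 3. Of 139 ribosome biogenesis genes, which encode the factors that build ribosomes, none was called by edgeR under any scaling, by DESeq2 or without any single library, and 0 had an unadjusted p under 0.05, although 132 had a value below 0 (median -0.18, range -0.47 to 0.14). Their replicates disagreed, with means of -0.39, -0.42 and 0.18 against the 40 fL mean. Of 27 RNA polymerase I and III genes RRN9 was called up (0.30 ± 0.08), a call lost under RLE (adjusted p = 0.0604), upper quartile (0.159), total (0.358) and TPM (0.598) scaling and without 40 fL replicate 1 or 2 or 45 fL replicate 2 or 3 (0.0503 to 0.0699). DOT6, a repressor of ribosome biogenesis genes, went from 379, 400 and 414 CPM to 507, 530 and 520 CPM (0.38 ± 0.07, adjusted p = 0.00188), lost under total (0.0937) and TPM scaling (0.241). Of 33 proteasome genes none was called by edgeR with TMM scaling of all libraries (median -0.28), and 12 had an unadjusted p under 0.05 and a lower value. The falls numbered 7 by DESeq2, 11 under upper quartile or total scaling, 9 with TPM plus 1, 1 with RLE and 1 without 40 fL replicate 1.

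**Figure D4:**
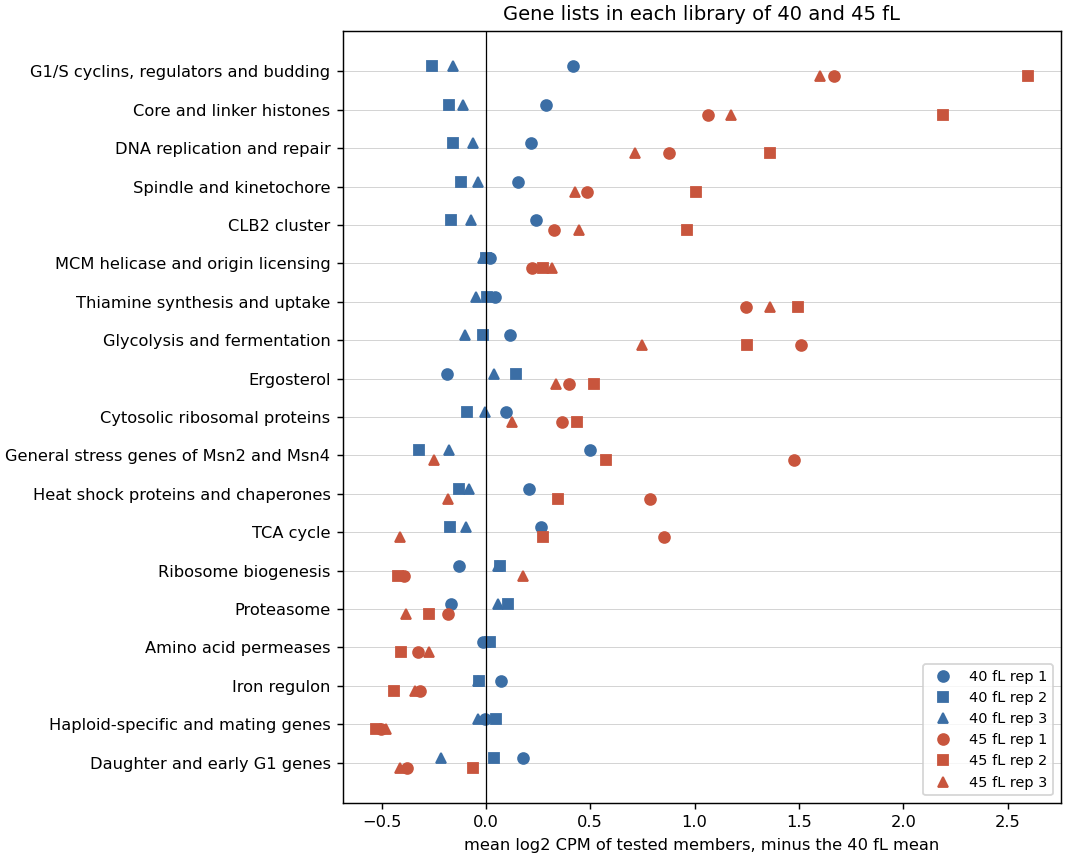
Mean log2 CPM of the tested members of 19 gene lists in each library, relative to the 40 fL mean, with 40 fL in blue and 45 fL in red. Cell cycle lists other than the MCM list lie highest in 45 fL replicate 2, stress lists are spread from -0.25 to 1.48 over the 45 fL libraries, and the mating list lies between -0.53 and -0.48 in all of them.

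The 45 fL pools differed in their level of stress genes. Of 42 general stress genes, targets of Msn2 and Msn4, 6 were called up (14.3%, beside 11.6% of all genes, and 1 member in the fit of the 6 libraries alone), with a median of 0.52, and the list stood at 1.48 in 45 fL replicate 1, 0.58 in replicate 2 and -0.25 in replicate 3. At 40 fL it stood at 0.50, -0.32 and -0.18, so the groups overlapped. SIP18, a desiccation protein gene, went from 7.97, 1.88 and 2.12 CPM to 85.3, 42.6 and 16.8 CPM (3.57 ± 0.66, adjusted p = 0.00184), or 2.87 without 45 fL replicate 1 and 4.59 without 40 fL replicate 1. TSA2, a peroxiredoxin gene, went from 24.9, 10.3 and 14.0 CPM to 147, 58.5 and 25.6 CPM (2.23 ± 0.48, adjusted p = 0.00508), or 1.36 without 45 fL replicate 1. The count was 12 without 45 fL replicate 3, 9 without 40 fL replicate 1, 4 without 45 fL replicate 2, and 2 without 40 fL replicate 2 or 3 or 45 fL replicate 1. Of 33 heat shock and chaperone genes 5 were called up (15.2%, and 1 member in the fit of the 6 libraries alone), with a median of 0.25, namely KAR2, CPR1, PDI1, SSA4 and SSA1. KAR2, the chaperone of the endoplasmic reticulum, rose evenly, from 417, 347 and 384 CPM to 857, 670 and 642 CPM (0.92 ± 0.14, adjusted p = 0.000451), and the calls of the other 4 ended without 45 fL replicate 1 (0.0574 to 0.289). SSA1 shares 63.6% of its words with other places. The chaperone count was 12 without 45 fL replicate 3, 2 under upper quartile, total and TPM scaling, 1 without 45 fL replicate 1, and 3 when 45 fL replicate 2, 40 fL replicate 2 or 40 fL replicate 3 was left out.

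Some thiamine genes, THI4 by the most of those named, rose. THI4, which makes the thiazole moiety of vitamin B1 (YGR144W, chromosome VII, 780399 to 781379), stood at 3.25, 1.92 and 2.59 CPM at 40 fL and at 60.5, 113 and 61.0 CPM at 45 fL. The groups lay far apart, and the rise was 4.91 ± 0.79 (adjusted p = 0.000603). THI22, a THI20 relative (YPR121W), went from 10.9, 12.9 and 10.7 CPM to 56.3, 76.7 and 58.5 CPM (2.47 ± 0.58, adjusted p = 0.00847). SNZ2, SNZ3, SNO2 and SNO3, vitamin B6 synthesis genes induced when thiamine runs low, rose by 2.54 ± 0.30, 2.40 ± 0.30, 2.35 ± 0.36 and 2.53 ± 0.39, but each pair shares 84.0% or 90.3% of its words and may share reads. Of 23 thiamine genes 10 rose (43.5%) and none fell (median 1.25), or 7 to 10 without any single library. The 45 fL libraries stood at 1.24, 1.49 and 1.36.

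The lysine synthesis genes LYS9, LYS12, LYS2 and LYS1 rose. LYS9, saccharopine dehydrogenase of lysine synthesis (YNR050C, chromosome XIV, 714048 to 715388), had the smallest adjusted p of all genes. It stood at 66.6, 64.1 and 67.9 CPM at 40 fL and at 233, 179 and 169 CPM at 45 fL. The replicates were tight at 40 fL and well apart from those at 45 fL (1.55 ± 0.12, adjusted p = 5.49e-07). LYS12 (1.05 ± 0.15), LYS2 (0.67 ± 0.12) and LYS1 (0.57 ± 0.12) are of the same pathway, and LYS1 was lost with TPM (0.0792). Of 50 genes of amino acid synthesis other than arginine and sulfur 6 rose, a share of 12.0% beside 11.6% of all genes, and 2 fell (median 0.05), or 4 and 9 under total scaling. The falls were TRP4 and LEU4 (both -0.27 ± 0.08), which were lost without 40 fL replicate 2 or 3 or 45 fL replicate 1 or 2 (0.0832 to 0.173).

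Some sterol genes and genes tied to oxygen rose. ERG3, a sterol desaturase gene, went from 147, 200 and 165 CPM to 431, 685 and 395 CPM (1.56 ± 0.33, adjusted p = 0.00458). ERG27 rose by 0.78 ± 0.11, ERG20 by 0.66 ± 0.13 and UPC2, the sterol-sensing activator, by 0.63 ± 0.13, with UPC2 lost for TPM (0.0583). Of 27 ergosterol genes 13 rose (48.1%, beside 11.6% of all genes), with a median of 0.38. The count was 7 under upper quartile or total scaling, 7 without 40 fL replicate 1, 8 without 40 fL replicate 3 and 6 without 45 fL replicate 2. HEM13, a haem synthesis gene that uses oxygen, went from 50.7, 134 and 97.9 CPM to 231, 426 and 268 CPM (1.71 ± 0.38, adjusted p = 0.00656). Of 21 oxygen and haem genes 5 rose (23.8%), namely TIR1, HEM13, ANB1, ERG11 and HAP1, with a median of 0.11. ANB1 was lost without any 40 fL library or 45 fL replicate 2 (0.0617 to 0.149), ERG11 without 40 fL replicate 1 or 3 or 45 fL replicate 1 or 2 (0.0591 to 0.0937) and HAP1 without any library but 40 fL replicate 2 (0.0748 to 0.15). All 3 were lost under upper quartile, total and TPM scaling (0.0518 to 0.473), and HAP1 also with RLE (0.0771). Of 18 fatty acid genes none was called by edgeR with TMM scaling of all libraries or by DESeq2, and 3 had an unadjusted p under 0.05. Under total or TPM scaling 1 was called down, and 1 was called up without 45 fL replicate 3. Of 29 phospholipid and 24 sphingolipid genes 3 each were called up (10.3% and 12.5%), near the 11.6% of all genes. Without 40 fL replicate 3 the counts of both were 0.

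Some genes for taking up amino acids, other nitrogen sources and iron fell. GAP1 (YKR039W, chromosome XI, 515063 to 516871), a permease of broad range for amino acids, stood at 490, 604 and 497 CPM at 40 fL and at 248, 215 and 279 CPM at 45 fL. No libraries overlapped, and the fall was -1.10 ± 0.27 (adjusted p = 0.0109), lost without 45 fL replicate 2 (0.0548). BAP3, for branched-chain amino acids, fell by 0.77 ± 0.14 on the log2 scale and the arginine permease gene CAN1 by 0.58 ± 0.13. Of 22 permease genes 6 fell (27.3%, beside 2.84% of all genes) and none rose (median -0.35). The falls numbered 3 to 4 without 40 fL replicate 2 or 3 or 45 fL replicate 1 or 2, and 10 under total scaling. Of 30 nitrogen catabolite repressed genes 6 fell (20%, median -0.16) and 1 rose (3.33%, beside 11.6% of all genes). The falls included the arginase gene CAR1 (-0.88 ± 0.14) and the urea transporter gene DUR3 (-1.05 ± 0.19). The 1 rise, DAL5 (0.32 ± 0.09), was lost under each other scaling (0.0516 to 0.54). It was also lost without 40 fL replicate 2 or 3 or 45 fL replicate 2 or 3 (0.0608 to 0.133). The falls numbered 4 without 40 fL replicate 1, 45 fL replicate 2 or 45 fL replicate 3.

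Of 10 arginine synthesis genes 3 fell (30%, beside 2.84% of all genes) and none rose. ARG4 led them and went from 144, 130 and 100 CPM to 49.8, 52.2 and 42.5 CPM (-1.37 ± 0.23, adjusted p = 0.000905). The list median was 0.01. Only 1 member stayed called down without 40 fL replicate 2 or 45 fL replicate 2, and 2 without 40 fL replicate 3 or 45 fL replicate 1. ARG7 (-0.62 ± 0.16) was lost without 40 fL replicate 2 (0.0837) or 45 fL replicate 2 (0.069).

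SIT1, a transporter of iron-siderophore complexes (YEL065W, chromosome V, 27657 to 29543), stood at 119, 136 and 146 CPM at 40 fL and at 37.0, 48.8 and 45.6 CPM at 45 fL, without overlap (-1.60 ± 0.26, adjusted p = 0.000653). FIT2 and FIT3, wall mannoproteins that retain iron, fell by 1.33 ± 0.25 and 0.70 ± 0.15 on the log2 scale, and FET3, the oxidase of iron uptake, by 0.96 ± 0.24. Of 28 genes of the iron regulon 5 fell (17.9%, beside 2.84% of all genes) and none rose (median -0.30). They were SIT1, FIT2, FIT3, FET3 and ENB1 (-0.76 ± 0.20). The count was 14 under total or TPM scaling and 8 with upper quartile factors, and the ENB1 call was lost without 40 fL replicate 1 (0.0575) or 45 fL replicate 2 (0.0974). In the iron list 21 of 28 windows held the Aft1 word.

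Some mating and sporulation genes, groups that an a/alpha diploid keeps low, fell. MF(ALPHA)1, the alpha-factor gene (YPL187W, chromosome XVI, 193648 to 194145), stood at 35.2, 39.8 and 36.0 CPM and then at 13.1, 11.9 and 14.4 CPM. Replicates were tight in both groups, and the fall was -1.49 ± 0.21 (adjusted p = 0.000154). MF(ALPHA)2 fell by 1.03 ± 0.17 on the log2 scale and FUS1, of cell fusion, by 1.35 ± 0.17, from 8.11 to 8.57 CPM to 2.67 to 3.73 CPM. Of 24 haploid-specific and mating genes 9 fell (37.5%, beside 2.84% of all genes) and none rose (median -0.44). The falls numbered 7 to 8 without any single library and 10 to 12 under other scalings. Of 24 meiosis and sporulation genes 5 fell (20.8%, median -0.26) and 1 rose (4.17%, beside 11.6% of all genes). The falls numbered 1 to 3 without any single library, with SPO21, down by 1.08 ± 0.26 on the log2 scale, in each such fit. The 1 that rose was the spore wall gene SPS100, which overlaps an antisense transcript. It went from 6.17 to 14.0 CPM to 32.9 to 82.5 CPM (2.90 ± 0.53). SSP2, of spore wall assembly, was among the 15 largest falls (-1.33 ± 0.18, adjusted p = 0.000119).

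Some mitochondrially encoded transcripts rose. COX1, a cytochrome c oxidase subunit, stood at 296, 359 and 327 CPM and then at 674, 503 and 584 CPM (0.84 ± 0.12, adjusted p = 0.000227), although genes in its introns overlap it. COX3 rose by 0.56 ± 0.10 and COB, of the cytochrome bc1 complex, by 0.74 ± 0.17. Of 8 such genes 5 rose (62.5%, beside 11.6% of all genes), with a median of 0.58. OLI1 was lost without any 40 fL library or 45 fL replicate 1 (0.0509 to 0.169). COX2 was lost without 40 fL replicate 1 or 3 or 45 fL replicate 1 or 2 (0.0748 to 0.118). Both were lost under upper quartile, total and TPM scaling (0.0698 to 0.144). Of 36 nuclear genes of oxidative phosphorylation 0 were called by edgeR, by DESeq2 or at an unadjusted p under 0.05 (median 0.08), but 2 were called without 45 fL replicate 3, and of 17 TCA cycle genes MDH1 alone was, against 6 without 45 fL replicate 3, with 45 fL libraries at 0.85, 0.27 and -0.41. The MDH1 call (1.39 ± 0.45) ended without 40 fL replicate 2 or 3 or 45 fL replicate 1 or 2 (0.0761 to 0.339) and under every other scaling (0.0572 to 0.125).

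By RNA class, mitochondrially encoded RNA took 0.743%, 0.880% and 0.758% of counts at 40 fL and 1.10%, 0.944% and 0.999% at 45 fL. The class of small nuclear RNA and like structured RNAs took 3.41% ± 0.0720 and 4.19% ± 0.0602 (SD, n = 3), and tRNA 0.0151% ± 0.00231 and 0.00895% ± 0.000803. The groups did not overlap in these 3 classes or in all other features together (93.3% ± 0.253 and 92.3% ± 0.0632), each at an exact two-sided permutation p of 0.1, the smallest that 3 libraries against 3 allow (adjusted p = 0.15 over 6 classes). rRNA and spacers took 0.270% ± 0.00871 and 0.294% ± 0.0138 (exact permutation p = 0.2) and small nucleolar RNA 2.22% ± 0.208 and 2.18% ± 0.0957 (exact permutation p = 1). Of 76 small nucleolar RNAs snR30, needed to cut the 18S rRNA precursor, rose from 2520, 2489 and 2453 CPM to 3969, 3518 and 3343 CPM (0.54 ± 0.11, edgeR adjusted p = 0.00458), and 3 fell, snR56, snR75 and snR74. Without any single library other than 45 fL replicate 3, the falls numbered 0 or 1, and snR74 was lost in each such fit (0.0874 to 0.134).

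Some genes moved differently at this step than at the next, from 45 to 50 fL. The difference between the steps, (45 minus 40) minus (50 minus 45), which counts the 45 fL libraries in both, was called at 89 of 6402 genes (1.39%), 79 with the higher value at the first step and 10 with the lower (1.23% and 0.156%). THI4 rose by 4.91 and then went from 78.1 ± 30.1 CPM (SD, n = 3) at 45 fL to 11.3 ± 9.08 CPM at 50 fL, a fall of -2.78 ± 0.70 (edgeR adjusted p = 0.0214). It later stood at 361 ± 183 CPM at 60 fL, 267 ± 86.5 CPM at 70 fL and 4.18 ± 0.893 CPM at 75 fL, so its level went up and down over the series. LYS9 went from 193 ± 34.4 CPM at 45 fL to 119 ± 7.07 CPM at 50 fL, a fall of -0.70 ± 0.12 (adjusted p = 0.00775), and its difference between steps was 2.25 ± 0.20 (adjusted p = 4.21e-06). MF(ALPHA)1 stayed between 7.06 and 15.1 CPM after its fall. PCL1 stood at 84.6 ± 49.3 CPM at 45 fL and 171 ± 103 CPM at 50 fL, and its difference between steps was not called (3.05 ± 0.77, adjusted p = 0.0545). The count depends on 1 library of 50 fL above all, with 1003 genes called without 50 fL replicate 2. It was 20 without 45 fL replicate 3, 31 without 40 fL replicate 3, 39 without 40 fL replicate 1, 40 without 50 fL replicate 3 and 55 without 50 fL replicate 1. As a background, 2055 genes (32.1%) were called from 45 to 50 fL and 1390 (21.7%) from 50 to 55 fL.

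**Figure D5:**
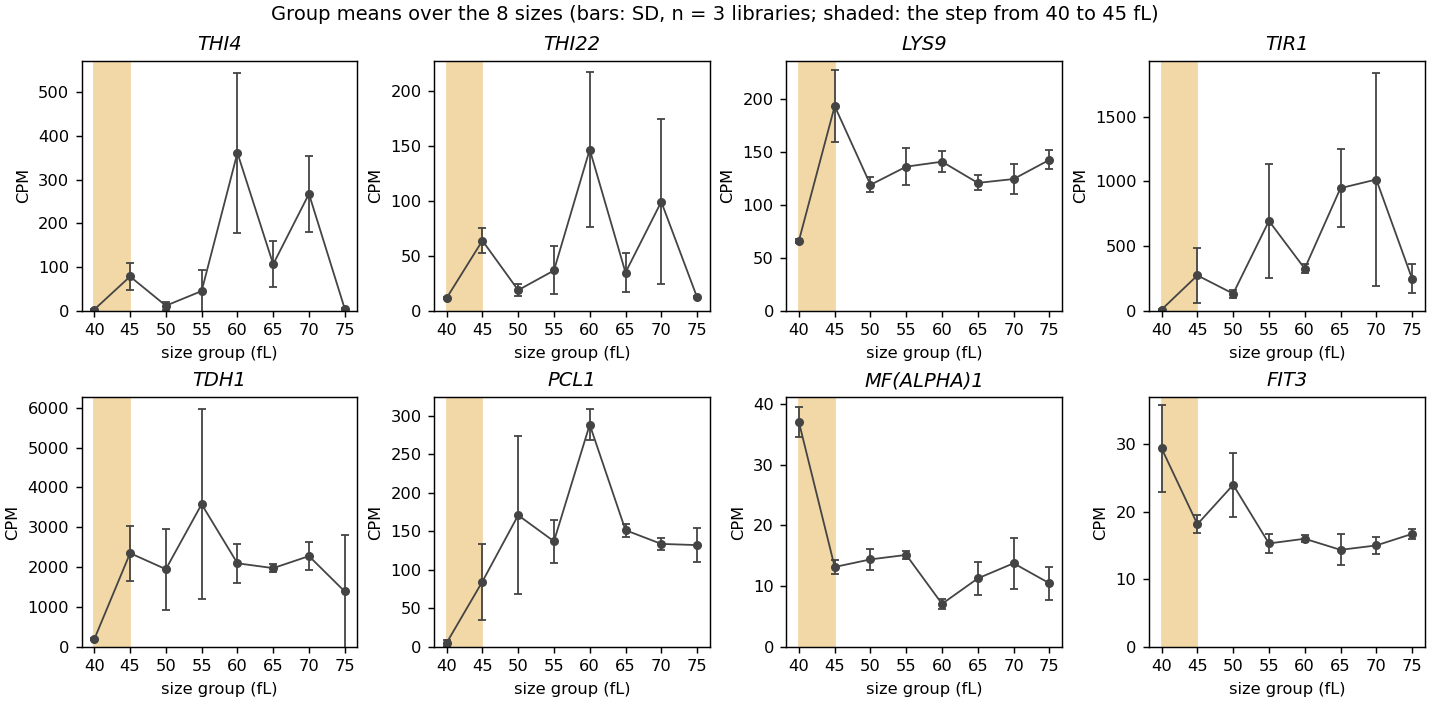
Mean CPM (bars: SD, n = 3 libraries) of 8 genes over the 8 size groups, on linear axes, with the step from 40 to 45 fL shaded. THI4 and THI22 rise and fall more than once, LYS9 is highest at 45 fL, and MF(ALPHA)1 and FIT3 are highest at 40 fL.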

How the data were processed

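RNA-seq counts per feature were deposited for 24 libraries in 8 size groups of 3, beside a table of TPM. Per the submitters' processing notes, the authors made the deposited counts with featureCounts (Subread) on build R64, and TPM values are their own scaling by length and depth; the aligner, strand setting and handling of reads with several matches are settings not given in the sources used here. Of 7032 features, 5953 matched RefSeq locus tags, 122 matched symbols and 957 have no position. The genes and lists were chosen with earlier results of these data known. All 24 libraries were fitted with edgeR 4.0.16 in R 4.3.3 (TMM, filterByExpr, robust quasi-likelihood), with the contrast 45 minus 40 fL and Benjamini-Hochberg adjustment over 6402 genes; the steps were checked on simulated data. Each SE was taken from the F statistic, as the size of the log2 change over its root. The edgeR p-values measure the spread between pools, estimated over the 8 sizes together and not from the 40 and 45 fL pools alone. limma 3.58.1 and DESeq2 1.42.0 gave alternatives, beside RLE, upper quartile and total scaling, other count filters, the 6 libraries alone, TPM plus 1 or 0.1, and leaving out each library. Class shares were compared with an exact permutation test. Genes named are the 15 largest changes each way (at least 10 CPM, no overlap), fixed landmarks, up to 4 called members of each list or all where 5 or fewer, and the 5 largest differences between steps each way. Shared sequence is the percent of a gene's 31-base words found elsewhere in the genome. Some items are not reported here.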

Additional observations from a re-analysis of the deposited data

Results flagged for a closer look

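The 10 genes named for their difference between the step from 40 to 45 fL and the step from 45 to 50 fL were called in that test by edgeR's quasi-likelihood method. Both steps share the 45 fL libraries. The value given is the first log2 change minus the second, and each call was refitted without each of the 9 libraries of the 3 sizes.

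The difference was positive for 5 genes. For THI4 it was 7.69 (adjusted p = 0.00152, and at most 0.00894 in the refits), with 2.59, 78.1 and 11.3 CPM on average at 40, 45 and 50 fL. For TIR1 it was 6.11 (adjusted p = 0.00295, at most 0.0359). For SNZ2 it was 3.80 (adjusted p = 0.000236, kept in all 9 refits), although its reads may be shared with SNZ3. For THI22 it was 4.24 (adjusted p = 0.0272, lost in 5 refits). For TDH1 it was 3.90 (adjusted p = 0.0349, lost in 7 refits).

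The difference was negative for the others. For MF(ALPHA)1 it was -1.62 (adjusted p = 0.031, lost in 8 refits), and for FIT3 -1.10 (adjusted p = 0.0479, lost in 6 refits). For SRO77 it was -0.90 (adjusted p = 0.0262, lost in 4 refits), with 81.2, 58.7 and 79.3 CPM at the 3 sizes. For VPS36 it was -0.76 (adjusted p = 0.0229, lost in 3 refits), with 66.2, 37.8 and 36.7 CPM. For YAT2 it was -0.75 (adjusted p = 0.0302, lost in 5 refits), with 51.8, 28.2 and 25.8 CPM.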

How the results depend on the processing

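No paired analysis was possible because the labels give no replicate numbers that link libraries across sizes. The step gave 742 genes up and 182 down. Upper quartile factors gave 353 and 374, library totals 315 and 586, TPM plus 1 gave 272 and 655, TPM plus 0.1 gave 269 and 595, and DESeq2 called 319 down. The 6 libraries alone gave 474 calls, 347 of them up. Leaving out 1 library gave 418 to 1014 calls, 334 to 872 up and 84 to 142 down, and leaving out 40 fL replicate 1 with 45 fL replicate 3 gave 112 down. The difference between steps was called at 89 genes, 79 up and 10 down. Upper quartile factors gave 45 up and 18 down, totals gave 47 calls and 36 up, DESeq2 gave 244 calls, 162 up and 82 down, leaving out those libraries together gave 19 calls, 19 up and 0 down, and leaving out 1 library gave 20 to 1003 calls, 20 to 864 up and 0 to 139 down. The cause of these shifts was not tested.

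CLN3 (0.03) turned to -0.00401 with RLE, -0.0738 with upper quartile factors, -0.159 with totals, -0.00396 with DESeq2, -0.00312 with no filter, -0.202 and -0.203 with TPM plus 1 and 0.1 and -0.0713 without those libraries together, and ran from -0.0260 to 0.101 without single libraries. With TPM plus 1 and 0.1, BCK2 turned to -0.0314 and -0.0318 and KOG1 to -0.0264 and -0.0271. The small nucleolar RNA share differed by -0.0394 percentage points, and by -0.136 to 0.0702 without single libraries. Over 157 genes, 2324 alternative values kept their direction and side of the threshold, 330 lost the call, 1 gained it and 14 changed sign. Counts per library limit genes near 1 CPM most.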

Other observations

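The genes with the smallest adjusted p were not those that changed most. They are named here after their values were seen. SCS3, a lipid droplet gene, stood at 28.7, 24.8 and 24.6 CPM at 40 fL and at 57.3, 51.1 and 52.6 CPM at 45 fL (1.04 ± 0.09, edgeR adjusted p = 1.05e-06). SND1, which targets proteins to the endoplasmic reticulum, stood at 204 to 226 and 413 to 442 CPM (1.01 ± 0.10, edgeR adjusted p = 1.73e-05). RNR2, the small subunit of ribonucleotide reductase, stood at 399 to 495 and 871 to 891 CPM (0.95 ± 0.10), and CBF1, a factor of centromeres and methionine genes, at 47.4 to 53.4 and 84.7 to 99.1 CPM (0.85 ± 0.09), both at an edgeR adjusted p of 1.73e-05. Their replicates lay closer together than those of the cyclin genes.

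Genes called up had a median length of 1362 bases and genes called down 1347 bases, beside 1185 bases for all tested genes with a known length. Their median levels were 57.5 and 25.4 CPM, beside 48.6 CPM. The 43 gene lists held 33.6% of the genes called up and 30.2% of those called down, beside 21.6% of all tested genes. Most called genes, like most tested genes, stood outside them.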
